A study of Mus musculus with 18 samples.

Results

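The genes described here encode synaptic adhesion and organizer molecules, a module of 50 listed symbols, all 50 of which were present among the 13973 genes of the count table. They were taken by symbol from a list drawn up with earlier results of these data known, and followed in all 18 libraries. The module holds neurexins (2), contactin-associated proteins (CNTNAP, 3), receptor phosphatases (4), neuroligins (3), LRRTM (4), calsyntenins (3), SLITRK (5), LRFN (5), Il1rapl1 (1), netrin-G ligands (NGL, 3), teneurins (4), CADM (4), contactins (4), NCAM (2) and the SEZ6 family (3). Polysome RNA-seq was done on acute brain slices of male C57BL/6N mice at postnatal day 28 to 35, either wild type (WT) or Fmr1 KO, a constitutive loss of the RNA-binding protein FMRP in all cells. Slice treatment lasted 30 min, with DMSO as the vehicle or with homoharringtonine (HHT) at 20 µM. HHT stops ribosomes at the start of coding sequences while those further along run off. Each replicate pooled 10 slices from 2 or 3 mice of 1 genotype, so single animals are not resolved. Each lysate gave an input library and a medium and a heavy polysome library, with 2 HHT lysates and 1 vehicle lysate per genotype. The labels call the tissue both hippocampal and hippocampal-cortical.

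Synaptic adhesion molecules span the cleft between axon terminal and dendrite and recruit the release and receptor machinery on either side. Presynaptic neurexins and LAR-type receptor phosphatases act as hubs that bind many postsynaptic partners, among them neuroligins, LRRTMs, SLITRKs and the netrin-G ligand Lrrc4b. Their mRNAs are translated at the endoplasmic reticulum, to which a ribosome is brought once a hydrophobic signal or membrane segment has emerged from it.

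The coding sequence around the first predicted hydrophobic segment is shown for 6 members whose responses to HHT differed, since these members differ in how far into the coding sequence that segment lies. Capitals mark a window of 19 codons. Among the first run of windows with a mean Kyte-Doolittle hydropathy of at least 1.6, it has the highest mean. All sequences run 5′ to 3′ on the coding strand of GENCODE M21 (GRCm38). Clstn3 lies at chr6:124430759-124464794 on the minus strand and Lrrtm3 at chr10:63928472-64090277 on the minus strand. Sez6l2 lies at chr7:126950563-126970606 on the plus strand and Lrrc4c at chr2:96318169-97631666 on the plus strand. Tenm2 lies at chr11:36006656-37235964 on the minus strand and Tenm4 at chr7:96171246-96911093 on the plus strand.
Clstn3, codons 1 to 24: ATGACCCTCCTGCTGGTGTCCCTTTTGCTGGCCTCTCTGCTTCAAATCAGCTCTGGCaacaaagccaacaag
Lrrtm3, codons 1 to 28: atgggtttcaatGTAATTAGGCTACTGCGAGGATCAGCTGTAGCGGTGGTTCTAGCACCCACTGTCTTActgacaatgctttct
Sez6l2, codons 1 to 35: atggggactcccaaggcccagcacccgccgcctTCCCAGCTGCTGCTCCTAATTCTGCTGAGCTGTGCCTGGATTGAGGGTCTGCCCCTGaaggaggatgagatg
Lrrc4c, codons 1 to 49: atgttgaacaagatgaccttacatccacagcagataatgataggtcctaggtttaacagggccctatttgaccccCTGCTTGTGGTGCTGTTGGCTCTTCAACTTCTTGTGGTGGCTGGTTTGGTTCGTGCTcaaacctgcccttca
Tenm2, codons 372 to 400: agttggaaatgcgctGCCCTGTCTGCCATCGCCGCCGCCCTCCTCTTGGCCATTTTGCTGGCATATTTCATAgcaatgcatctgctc
Tenm4, codons 400 to 428: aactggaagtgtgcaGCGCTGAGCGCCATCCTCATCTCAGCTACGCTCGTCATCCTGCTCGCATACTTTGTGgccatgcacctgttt
Clstn3, Lrrtm3, Sez6l2 and Lrrc4c carry the segment near the start codon, as secreted and many membrane proteins do. In Tenm2 and Tenm4 the marked window begins at codons 377 and 405. It lies at the only membrane span of these type II proteins, which have no cleaved signal. By this prediction 47 of the 50 members (94.0%) held such a segment, against 36.0% of the 13049 genes with a coding sequence. In 26 members the window chosen in this way began within the first 30 codons. In others it lay far into the coding sequence, as at codons 698, 679 and 687 in Nlgn1, Nlgn2 and Nlgn3. A signal below the threshold is not marked, so a late window does not show that an early signal is absent. Lrfn1, Cntn1 and Cntn4 had no such segment at this threshold, although Lrfn1 is a membrane protein and the contactins carry a lipid anchor.

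Library totals ran from 6226237 to 13834652 estimated counts, and values below are CPM (counts scaled to library size) after TMM scaling, that is, shares of a library. Fmr1, which checks the labels, was at 4.62 to 8.53 CPM in the 9 KO libraries and at 13.9 to 32.2 CPM in the 9 WT libraries, with no overlap. HHT replicates differed for these genes in particular libraries: replicate 1 was above replicate 2 in input for 50 of 50 members in KO (46.6% of all genes) and for 48 of 50 in WT (48.4%), with median differences of 0.68 and 0.66 on the log2 scale. In medium it was above for 48 members in KO (50.3%) and 47 in WT (51.1%). In heavy polysomes it was above for 41 members in KO (50.5%) and 38 in WT (50.9%), with medians of 0.18 and 0.19. The lowest rescaled TPM in a library was 1.00 to 1.04 in HHT replicate 1 and vehicle libraries and 0.772 to 0.904 in HHT replicate 2 libraries, and results that change with replicate 1 or 2 alone are given with those values. Of 6 excitatory neuron markers, 1 rose and none fell under HHT in input, with a summed level of 5367 to 5887 CPM in vehicle and 5033 to 7326 CPM under HHT. In heavy polysomes 1 rose and 3 fell, with sums of 9822 to 10495 CPM in vehicle and 6614 to 7615 CPM under HHT. The 5 vessel markers summed to 14.0 to 15.4 CPM in vehicle input and 34.3 to 42.9 CPM under HHT, and 3 of them rose. The 6 astrocyte markers summed to 1661 to 1952 CPM in vehicle heavy libraries and 612 to 791 CPM under HHT. Of these, 3 rose and 3 fell there, with a median log2 difference of -0.3. In input 3 astrocyte markers rose and none fell, with sums of 949 to 991 CPM in vehicle and 1103 to 1447 CPM under HHT. The 6 microglia markers summed to 47.0 to 72.2 CPM in vehicle input and 85.8 to 109 CPM under HHT, and 3 of them rose. Under HHT the 7 striatum and thalamus markers had median KO against WT differences of -0.53, -0.35 and -0.49 in input, medium and heavy. No marker was at 0 in every library, and the part of cell composition in the results was not tested. In such bulk tissue, fewer cells of a type and less RNA per cell cannot be told apart.

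Levels per transcript length, in rescaled TPM of the vehicle input libraries, spanned a wide range within the module. Clstn1, a calsyntenin that also links cargo to kinesin, was the highest at 319 in WT and 414 in KO. Cadm3, an immunoglobulin adhesion molecule of axons, followed at 179 and 284, and Cadm4 at 162 and 185. The lowest in WT were Tenm1 and Il1rapl1, which stood at 2.19 and 2.65 in KO, the latter a partner of presynaptic phosphatase Ptprd. With 1 library per genotype these orders have no replicate check.

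HHT raised the share of nearly the whole module in polysomes. In heavy polysomes 50 of 50 members rose against vehicle, where 27.1% of all genes rose and 24.7% fell, with a median log2 difference of 1.81 over members and 0.06 over all genes. In medium polysomes 48 rose and none fell, against 25.4% and 21.5% of all genes, with a median of 1.42. In input 31 rose and none fell, against 12.2% and 0.215% of all genes, with a median of 0.91. That input count was 13 with limma on log2(rescaled TPM + 1) (5.8% of all genes), 0 in KO slices alone (0.0%) and 14 in WT slices alone (6.81%). Every HHT library exceeded both vehicle libraries for 50 members in heavy (35.2% of all genes), 50 in medium (33.9%) and 35 in input (18.4%). Genes with a predicted hydrophobic segment, which 47 members had, are a nearer background. Of these 4702 genes, 2508 rose and 515 fell in heavy, 2319 and 353 in medium, and 1507 and 6 in input. Calls are from edgeR's quasi-likelihood test with Benjamini-Hochberg adjustment over all genes at 0.05, in which the HHT groups supply the spread for vehicle groups of 1 library. Over all genes 2467 rose and 472 fell in input with replicate 1 of both genotypes alone, and 1184 and 313 with replicate 2 alone. Members called in input numbered 49 with replicate 1 alone and 20 with replicate 2 alone. Without the first KO HHT lysate the count in input was 18, and 17 of the 31 were called whichever HHT lysate was left out, while it stayed at 50 in heavy whichever HHT lysate was left out.

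**Figure D1:**
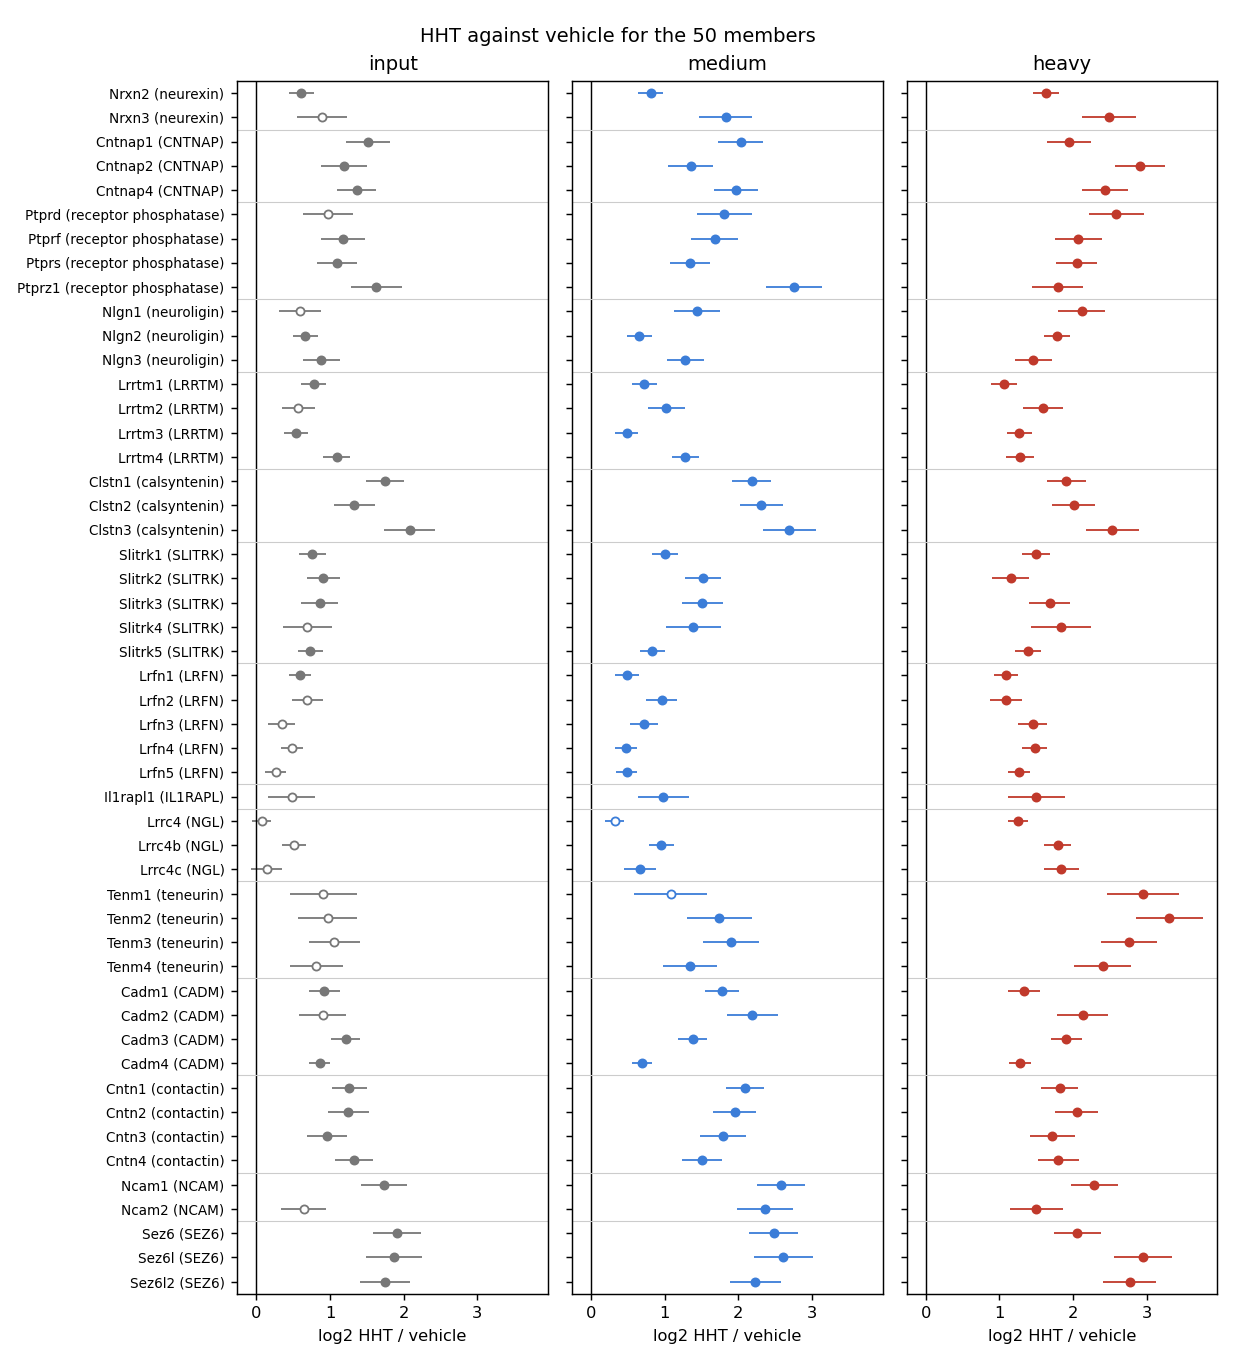
Log2 difference between HHT and vehicle (x axis) for each of the 50 members (y axis, grouped by family) in input, medium and heavy libraries. Points are edgeR estimates with SE bars, filled where the adjusted p was under 0.05; all 50 are filled in heavy, 48 in medium and 31 in input.

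Among the presynaptic hubs, the neurexins Nrxn2 and Nrxn3 were called in both polysome pools and Nrxn2 alone also in input. Library values are listed below in the order WT vehicle and KO vehicle, then WT HHT replicates 1 and 2 and KO HHT replicates 1 and 2. Nrxn2 in heavy polysomes was at 265 and 314 CPM in vehicle and at 964, 846, 894 and 869 CPM under HHT. The groups were far apart, with a log2 difference of 1.63 ± 0.18 (SE, adjusted p = 1.17e-05), against 0.61 ± 0.17 in input, where the call held only when the second WT HHT lysate was the one left out. Nrxn3 rose by 2.49 ± 0.37 in heavy and 1.83 ± 0.36 in medium, and stood at 0.89 ± 0.34 in input (adjusted p = 0.121).

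All 3 CNTNAP members rose in every kind of library. Cntnap2, which clusters potassium channels beside nodes of Ranvier and is a known autism gene, was at 23.6 and 28.7 CPM in vehicle heavy libraries and at 199, 178, 207 and 201 CPM under HHT. That is a log2 difference of 2.91 ± 0.34 (adjusted p = 1.75e-05), the fourth highest of the module after Tenm2, Tenm1 and Sez6l, against 1.35 ± 0.31 in medium and 1.19 ± 0.31 in input. Cntnap1, of the paranodal junction, changed by similar amounts in all 3, at 1.51 ± 0.30, 2.03 ± 0.31 and 1.94 ± 0.30 in input, medium and heavy. An exon of Cntnap1 overlaps Plekhh3 on the other strand, so its reads are uncertain where the counting did not use strand, which the sources do not state.

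The LAR-type phosphatases Ptprd, Ptprf and Ptprs rose in both polysome pools, and Ptprf and Ptprs also in input. Ptprs was at 290 and 351 CPM in vehicle heavy libraries and at 1398, 1206, 1341 and 1346 CPM under HHT. Its log2 difference was 2.05 ± 0.28 (adjusted p = 5.07e-05), and both HHT replicates of each genotype were close. Ptprz1, a proteoglycan-type phosphatase of glia and their precursors, behaved otherwise, with its largest difference in medium. Medium CPM of Ptprz1 was 12.9 and 13.3 in vehicle and 111, 70.3, 96.2 and 75.9 under HHT, a log2 difference of 2.75 ± 0.38 (adjusted p = 0.000157), against 1.79 ± 0.35 in heavy. Of 5 oligodendrocyte precursor markers, 3 rose and 1 fell in medium, with a median log2 difference of 1.35 but a summed level of 360 to 394 CPM in vehicle and 300 to 339 CPM under HHT. Of 6 astrocyte markers, 3 rose and 1 fell there, with a median of 0.74 and sums of 805 to 855 CPM in vehicle and 1036 to 1206 CPM under HHT. The part of either cell type in the Ptprz1 result was not tested.

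Postsynaptic ligands of neurexins rose to different extents. Nlgn2, the neuroligin of inhibitory synapses, was at 221 and 254 CPM in vehicle heavy libraries and at 867, 821, 784 and 776 CPM under HHT, a log2 difference of 1.78 ± 0.18 (adjusted p = 8.01e-06). In medium and input its differences were only 0.65 ± 0.17 and 0.66 ± 0.17, and the input call was lost without the first lysate of either genotype. Nlgn1, of excitatory synapses, rose by 2.12 ± 0.32 in heavy and was at 0.59 ± 0.29 in input (adjusted p = 0.265). Nlgn3, found at both kinds of synapse, rose by 1.46 ± 0.25 in heavy.

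The LRRTMs, leucine-rich repeat proteins of excitatory synapses, had the second lowest family median in heavy at 1.28. Lrrtm3 was at 17.9 and 20.8 CPM in vehicle heavy libraries and at 50.2, 50.1, 44.2 and 42.1 CPM under HHT, a log2 difference of 1.27 ± 0.17 (adjusted p = 3.94e-05). Lrrtm4 changed by 1.09 ± 0.18 in input and 1.28 ± 0.18 and 1.28 ± 0.19 in medium and heavy, so that its polysome difference was close to that of input. Lrrtm2 rose by 1.59 ± 0.27 in heavy, but it shares exonic sequence with Ctnna1 on the other strand.

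Calsyntenins, cadherin-like proteins of the postsynaptic membrane, rose in all 3 kinds of library. Clstn2 rose by 1.33 in input, 2.31 in medium and 2.01 in heavy. Clstn1 was at 722 and 841 CPM in vehicle heavy libraries and at 3243, 2494, 3268 and 2721 CPM under HHT, a log2 difference of 1.91 ± 0.27 (adjusted p = 5.28e-05). Its input values of 461 and 608 CPM in vehicle and 2184, 1209, 2275 and 1457 CPM under HHT gave 1.75 ± 0.26. Clstn3 had the largest rise of the module in input, from 96.5 and 129 CPM to 632, 262, 628 and 362 CPM, a log2 difference of 2.08 ± 0.35 (adjusted p = 0.00213). In both genotypes the first HHT replicate was far above the second, while all 4 were above vehicle.

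Ligands of the receptor phosphatases rose in heavy, with fewer calls in input. All 5 SLITRKs rose in heavy, by 1.15 to 1.84, and 4 of them in input, each of which lost that call without at least 1 of the HHT lysates. Slitrk1 was at 27.1 and 42.8 CPM in vehicle heavy libraries and at 107, 94.1, 101 and 84.0 CPM under HHT (log2 difference 1.50 ± 0.19, adjusted p = 2.66e-05). The LRFN proteins, which bind the postsynaptic scaffold, rose in heavy in 5 of 5 cases by 1.09 to 1.48, but only Lrfn1 was called in input, and not without the first lysate of either genotype. Input differences of the SLITRKs and LRFNs were not tested against each other. Lrfn4 was at 28.4 and 38.5 CPM in vehicle heavy libraries and at 99.6, 95.6, 89.6 and 85.1 CPM under HHT (1.48 ± 0.17, adjusted p = 1.28e-05). Il1rapl1 was at 1.66 and 2.05 CPM in vehicle heavy libraries and at 5.39, 4.56, 6.02 and 5.14 CPM under HHT (1.50 ± 0.39, adjusted p = 0.00525), the widest relative error of the family leaders.

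The netrin-G ligands rose in heavy and were not called in input. In input none of the 3 was called, with log2 differences of 0.07 ± 0.13 for Lrrc4, 0.51 ± 0.16 for Lrrc4b and 0.14 ± 0.21 for Lrrc4c. In heavy all 3 rose, by 1.25 ± 0.14, 1.79 ± 0.18 and 1.84 ± 0.24. Lrrc4b, a ligand of the LAR phosphatase, was at 89.1 and 97.5 CPM in vehicle heavy libraries and at 378, 327, 315 and 277 CPM under HHT (adjusted p = 6.62e-06). Its input values of 111 and 123 CPM in vehicle and 188, 124, 199 and 157 CPM under HHT barely separated the groups. Lrrc4 and Tenm1 were the 2 members called in heavy alone (10.3% of all genes), 17 were called in both polysome pools but not in input (6.38%), and 31 in all 3 kinds of library (9.5%).

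Teneurins, very large transmembrane partners of latrophilins, had the highest family median in heavy at 2.86 and were called in input in 0 of 4 cases. Tenm2 was at 20.3 and 22.8 CPM in vehicle heavy libraries and at 200, 212, 215 and 226 CPM under HHT, a log2 difference of 3.31 ± 0.46 (adjusted p = 5.35e-05), the largest of the module. Its input values of 33.9 and 36.0 CPM in vehicle and 84.7, 45.7, 94.8 and 47.1 CPM under HHT gave 0.97 ± 0.40 (adjusted p = 0.161), with replicate 2 near vehicle. Tenm3 was at 38.4 and 48.0 CPM in vehicle heavy libraries and at 279, 269, 297 and 323 CPM under HHT (2.76 ± 0.38, adjusted p = 5.32e-05). Tenm1 went from 5.17 and 5.42 CPM to 38.3, 36.2, 46.7 and 43.3 CPM (2.95 ± 0.49), and Tenm4 rose by 2.40 ± 0.39. The HHT replicates of Tenm2 lay closer together in heavy than in input.

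**Figure D2:**
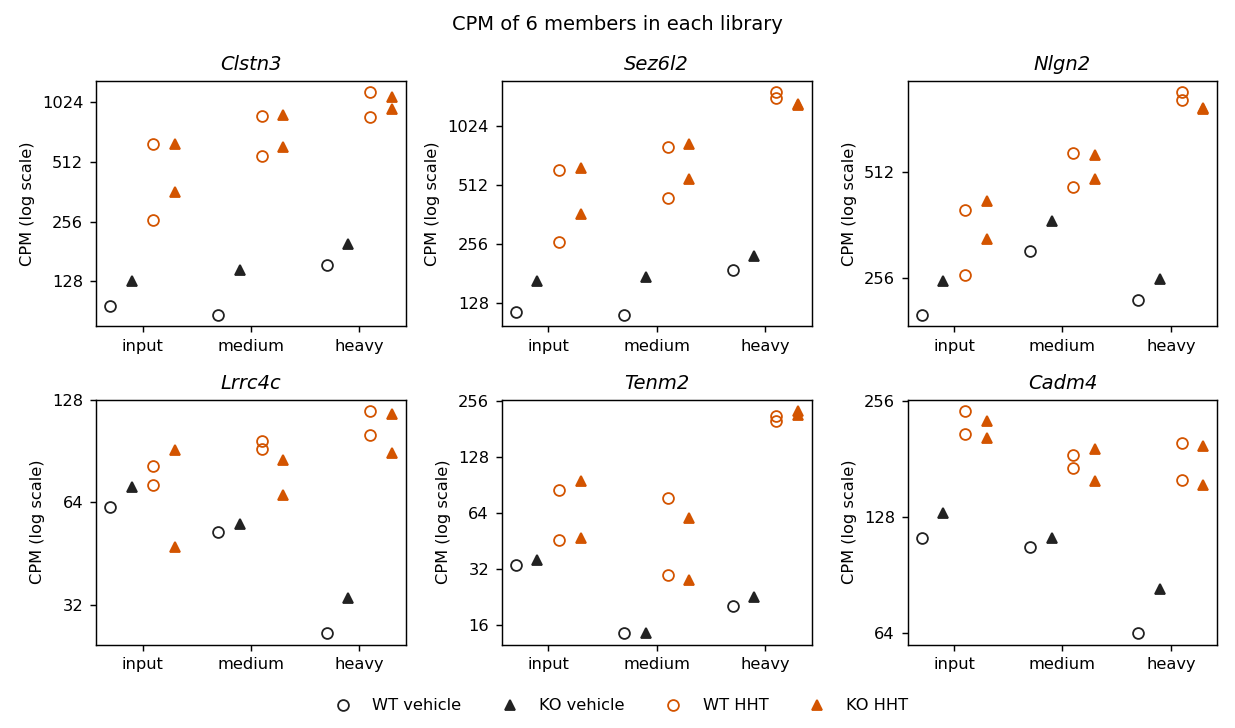
CPM (log y axis, each panel with its own range) of 6 members in each of the 18 libraries, by kind of library (x axis), with circles for WT, triangles for KO, black for vehicle and orange for HHT. In heavy, Tenm2 was at 20.3 and 22.8 CPM in vehicle and at 200 to 226 CPM under HHT, while Clstn3 was already higher under HHT in input.

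Immunoglobulin-type adhesion molecules rose in both polysome pools. Cadm2 was at 0.90 in input, where it was not called, and rose by 2.19 in medium and 2.13 in heavy. Cadm3 was at 162 and 237 CPM in vehicle heavy libraries and at 829, 559, 847 and 714 CPM under HHT, a log2 difference of 1.91 ± 0.21 (adjusted p = 1.07e-05). Its same-strand neighbour Ackr1 shares exonic sequence, so its reads may be split. Cntn1, a contactin of the paranodal axon membrane, was at 103 and 120 CPM in vehicle heavy libraries and at 419, 342, 478 and 337 CPM under HHT (1.82 ± 0.25, adjusted p = 5.32e-05). All 4 contactins rose in all 3 kinds of library, by 0.96 to 1.33 in input and 1.72 to 2.05 in heavy. Ncam1, the main carrier of polysialic acid, was at 94.5 and 115 CPM in vehicle heavy libraries and at 586, 447, 603 and 409 CPM under HHT (2.29 ± 0.32, adjusted p = 5.48e-05), against 1.73 ± 0.31 in input. Ncam2 rose most in medium, by 2.36 ± 0.38, from 5.94 and 7.77 CPM in vehicle to 41.2, 25.6, 39.3 and 34.0 CPM under HHT.

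The SEZ6 proteins, neuronal surface proteins with complement-type repeats, rose strongly in every kind of library. Sez6l2 was at 189 and 223 CPM in vehicle heavy libraries and at 1526, 1421, 1336 and 1315 CPM under HHT, a log2 difference of 2.77 ± 0.36 (adjusted p = 3.56e-05). Sez6l rose from 109 and 154 CPM to 1075, 924, 1027 and 994 CPM in heavy (2.95 ± 0.40), and by 2.61 ± 0.40 in medium and 1.87 ± 0.38 in input. Sez6 input values of 67.6 and 95.9 CPM in vehicle became 383, 164, 404 and 267 CPM under HHT (1.91 ± 0.32, adjusted p = 0.00219). The input rises of the 3 SEZ6 genes, the 3 calsyntenins and Ncam1 were called whichever HHT lysate was left out.

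Whether HHT moved members between lysate and heavy polysomes was asked through the heavy/input ratio, which removes a change shared by both. The ratio was higher under HHT than in vehicle for 19 members and lower for none, where 12.6% of all genes were higher and 16.3% lower, with a median log2 difference of 0.88 over members and 0.01 over all genes. All 4 teneurins, all 3 netrin-G ligands, both neurexins, 3 of 5 LRFNs, 2 of 3 neuroligins and 2 of 4 LRRTMs were among them, as were Cntnap2, Ptprd and Slitrk1. None of the 3 calsyntenins, 4 CADMs, 4 contactins, 2 NCAMs and 3 SEZ6 genes was called, with values such as 0.16 ± 0.34 for Clstn1 and 1.01 ± 0.45 for Sez6l2, the latter too imprecise to show that its ratio was unchanged. Fractions of 1 lysate are paired, and with a block for the lysate 35 members were called higher and none lower, where 16.3% of all genes were higher and 17.8% lower. Sez6l2, Sez6l, Ncam1, Cntn1, Cadm2, Cadm3 and Clstn2 were among those 35. With replicate 1 of the HHT groups alone 29 members were called higher, where 2720 of all genes were higher and 2779 lower. With replicate 2 alone 38 members were called higher, where 2198 of all genes were higher and 2284 lower.

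Tenm2 showed the largest change of the ratio. Its log2 heavy/input ratio was -0.70 ± 0.48 in vehicle and 1.64 ± 0.31 under HHT, a shift of 2.34 ± 0.57 (adjusted p = 0.00819). Tenm1 shifted by 2.04 ± 0.67 (adjusted p = 0.0357) and Cntnap2 by 1.72 ± 0.43 (adjusted p = 0.00942), whereas the calls for Tenm1 and Tenm4 (1.59 ± 0.50) were lost without the second KO HHT lysate (adjusted p = 0.0591 and 0.0856). The calls for Lrrtm2, Lrrtm3, Ptprd and Slitrk1 were lost without the second WT HHT lysate (adjusted p = 0.0989, 0.064, 0.0738 and 0.0738), so 13 of the 19 held whichever HHT lysate was left out. Lrrc4c had the lowest vehicle ratio of the module at -1.16 ± 0.26 and reached 0.54 ± 0.17 under HHT, a shift of 1.70 ± 0.31 (adjusted p = 0.00165). Lrrc4 had the smallest adjusted p, 0.000546, with a shift of 1.19 ± 0.18. Both HHT-dependent calls of the neurexins, with a shift of 1.02 ± 0.23 for Nrxn2, held whichever HHT lysate was left out.

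**Figure D3:**
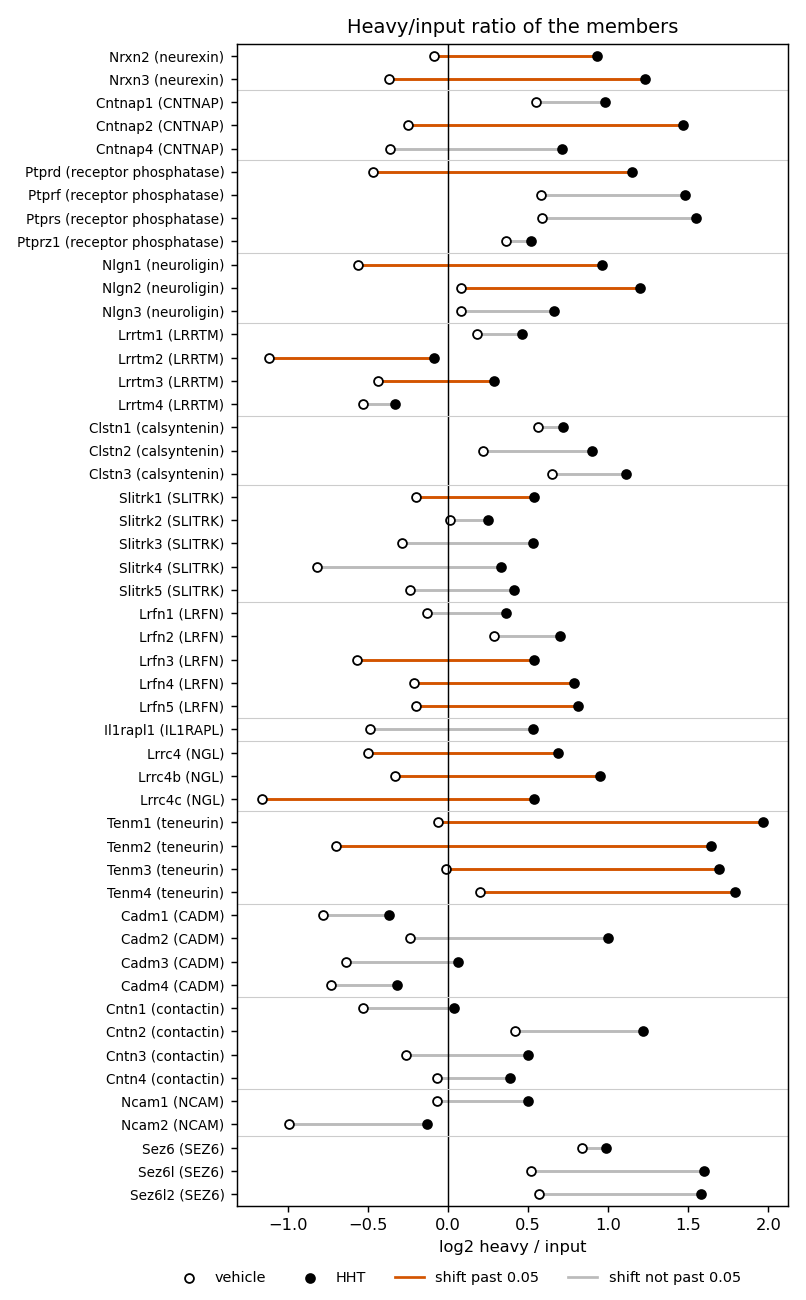
Log2 heavy/input ratio (x axis) of each member (y axis, by family) in vehicle (open circles) and under HHT (filled circles), joined by an orange line where the shift was past an adjusted p of 0.05 and by a grey line where it was not. Teneurins and netrin-G ligands moved from ratios of -1.16 to 0.20 in vehicle to 0.54 to 1.97 under HHT.

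The shift was divided between the other ratios, each with a member median of 0.51. For heavy/medium, 12 members were higher under HHT and none lower, where 18.1% of all genes were higher and 18.4% lower, with a median of 0.12 over all genes. Of those called, Cntnap2 (1.56 ± 0.43), Lrrc4c (1.18 ± 0.31) and Nlgn2 (1.13 ± 0.24) had the largest shifts, while the estimates of 1.87 for Tenm1 and 1.57 for Tenm2 were larger but not called. With the lysate block 20 were higher (21.7% of all genes) and 1 lower (20.2%), which was Ptprz1 at -0.93 ± 0.29 (adjusted p = 0.0184). For medium/input only Ncam2 was called, with a shift of 1.72 ± 0.48 (adjusted p = 0.0273), against 7.09% of all genes higher and 10.2% lower. That call was lost without either WT HHT lysate (adjusted p = 0.0523 and 0.0549), the counts without each HHT lysate ran from 0 to 8, and the lysate block called 12 higher and none lower, where 10.6% of all genes were higher and 12.6% lower. The 3 calsyntenins were among those 12, with shifts of 1.01 for Clstn2, 0.66 for Clstn3 and 0.46 for Clstn1. Ncam2, a neural cell adhesion molecule of axons, was at 23.6 and 22.1 CPM in vehicle input but at 5.94 and 7.77 CPM in vehicle medium.

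Within vehicle slices the members' fraction ratios were called at rates below those of all genes without the lysate block and near them for heavy/medium with it. For heavy/input, 7 members were lower and none higher, where 21.7% of all genes were lower and 24.8% higher, with a median of -0.21. They were Lrrc4c (-1.16 ± 0.26), Lrrtm2 (-1.12 ± 0.30), Cadm1 (-0.78 ± 0.25), Cadm4 (-0.73 ± 0.17), Cadm3, Lrfn3 and Lrrc4. Lrrtm2 was at 24.7 and 31.8 CPM in vehicle input and at 11.6 and 14.4 CPM in heavy, and Cadm1 at 60.3 and 82.1 CPM and at 38.0 and 44.2 CPM. In both cases each heavy library lay below both input libraries. Without either WT HHT lysate, which changes the spread alone, 4 members were called higher and 7 lower, and with the lysate block 7 were higher and 11 lower, where 26.4% of all genes were higher and 23.9% lower.

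For medium/input in vehicle, Ncam2 (-1.75 ± 0.42), Cadm1 (-0.99 ± 0.24) and Cntn1 (-0.86 ± 0.27) were lower and Nlgn2 was higher, where 9.5% of all genes were lower and 10.2% higher, and the lysate block called 7 lower and 4 higher, against 11.9% and 13.3% of all genes. Nlgn2 was at 201 and 251 CPM in vehicle input and at 306 and 371 CPM in medium, a log2 difference of 0.59 ± 0.19 (adjusted p = 0.0481). That call was lost without either KO HHT lysate (adjusted p = 0.0672 and 0.0699). Cntn1 was at 153 and 169 CPM in input and at 74.7 and 105 CPM in medium.

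For heavy/medium in vehicle 8 members were lower and 2 higher, where 28.1% of all genes were lower and 25.9% higher, and the lysate block called 14 in each direction, close to its 29.8% lower and 27.4% higher of all genes. The netrin-G ligands were lowest, at -0.85 ± 0.26 for Lrrc4c, -0.80 ± 0.15 for Lrrc4 and -0.70 ± 0.19 for Lrrc4b. Lrrc4 was at 102 and 129 CPM in vehicle medium and at 62.9 and 68.7 CPM in heavy, with no overlap. The 2 higher members were Ptprz1, from 12.9 and 13.3 CPM in medium to 27.7 and 30.5 CPM in heavy (1.14 ± 0.42, adjusted p = 0.0336), and Sez6, from 59.0 and 84.5 CPM to 143 and 145 CPM (1.03 ± 0.35, adjusted p = 0.023). With total counts in place of TMM the median of all genes was -0.42, neither of these 2 was called, and 18 members were called lower. Over all genes 5712 were then lower and 2617 higher.

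Under HHT the members were enriched in heavy polysomes. For heavy/input 36 were higher and 1 lower, where 27.6% of all genes were higher and 30.4% lower, with a median of 0.70 over members and -0.04 over all genes. The largest ratios were those of Tenm1 (1.97 ± 0.32), Tenm4 (1.79 ± 0.28) and Tenm3 (1.69 ± 0.27). Tenm4 was at 91.3, 36.3, 93.4 and 51.6 CPM in the HHT input libraries and at 243, 193, 248 and 266 CPM in the HHT heavy libraries, without overlap. Total counts moved the median of all genes to -0.28, with 2382 genes called higher and 6090 lower. Of the members, 27 were then higher and 3 lower. With the lysate block 41 were higher and 3 lower, where 29.1% of all genes were higher and 32.0% lower. The 3 lower were Cadm1 (-0.38 ± 0.10, adjusted p = 0.00422), Lrrtm4 (-0.34 ± 0.10, adjusted p = 0.0116) and Cadm4.

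Cadm4, an adhesion molecule of glia and axons, was the 1 member called lower in heavy/input without the block. Its HHT values were 210, 242, 227 and 206 CPM in input, 186, 172, 192 and 159 CPM in medium, and 200, 160, 196 and 155 CPM in heavy. The log2 ratios to input were -0.32 ± 0.11 for heavy (adjusted p = 0.0292) and -0.32 ± 0.11 for medium (adjusted p = 0.0481). The heavy call was lost without the second lysate of either genotype (adjusted p = 0.131 and 0.301), the medium call without any of the 4 HHT lysates (adjusted p = 0.058 to 0.279), and DESeq2 called neither (adjusted p = 0.0548 and 0.0853). With the lysate block both were called (adjusted p = 0.00756 and 0.0137).

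For medium/input under HHT 10 members were higher and Cadm4 was lower, where 13.4% of all genes were higher and 17.0% lower, and the lysate block called 24 higher and 1 lower, against 17.4% and 19.5% of all genes. Of those called, Cadm2 was highest at 1.06 ± 0.25, followed by Lrrc4b at 0.82 ± 0.13 and Nlgn2 at 0.58 ± 0.14. Cadm2 was at 169, 110, 199 and 68.5 CPM in the HHT input libraries and at 343, 346, 263 and 211 CPM in medium. Without the second KO or the second WT HHT lysate 3 and 4 members were called, and Lrrc4 and Lrrc4b alone held whichever lysate was left out. For heavy/medium under HHT 18 members were higher and none lower, where 19.0% of all genes were higher and 16.8% lower, led by Tenm1 (2.15 ± 0.32), Tenm2 (2.14 ± 0.32) and Tenm4 (1.68 ± 0.28). The lysate block called 28 higher and none lower (21.5% and 19.3% of all genes), and 9 were called without the second KO HHT lysate.

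No member was called different between KO and WT slices under HHT in the fit of all libraries. KO against WT called 0 of 50 members in input, medium and heavy, as it called 0.0% of all genes in each, and 0 members in each had an unadjusted p under 0.05, while 679, 387 and 412 of all genes did. DESeq2 also called 0. Median log2 differences were 0.06, -0.02 and -0.02, with a median SE of 0.28 in each, which limits what 2 libraries against 2 could show. The estimates farthest from 0 were -0.70 ± 0.33 for Il1rapl1 in input, -0.54 ± 0.35 for Cadm2 in medium and 0.62 ± 0.36 for Ncam2 in heavy. KO and WT libraries did not overlap for 3 members in input (26.8% of all genes), 7 in medium (35.4%) and 21 in heavy (35.3%).

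In vehicle, with 1 library per genotype and no test, the KO library was above the WT library for 44 members in input (53.0% of all genes), 47 in medium (51.1%) and 45 in heavy (55.3%). The median log2 differences were 0.25, 0.35 and 0.24, against 0.01, 0.01 and 0.03 over all genes, and 38 members were higher in KO in all 3 fractions (20.3% of all genes). Lrrtm4, at 16.5 CPM in WT and 27.3 CPM in KO input, had the largest difference there at 0.73 on the log2 scale, and Ncam1, at 61.1 and 111 CPM, had the largest in medium at 0.86. Slitrk1, at 27.1 and 42.8 CPM, had the largest in heavy at 0.66. The 3 vehicle libraries of a genotype come from 1 lysate, so these values are not independent. HHT lysates of the same genotype also differed for the module, replicate 1 being mostly above replicate 2. Their input medians were 0.68 for KO (50 members above) and 0.66 for WT (48). Medium medians were 0.34 for KO (48 members) and 0.45 for WT (47). Heavy medians were smaller than the vehicle one, at 0.18 for KO (41 members) and 0.19 for WT (38). The part of genotype in the vehicle differences was not tested. The difference between KO and WT in the response to HHT was not called for any member in input, medium or heavy (0.0% of all genes in each, lowest adjusted p 0.999, DESeq2 0), although its median was -0.20, -0.33 and -0.22. Only Slitrk5 in heavy had an unadjusted p under 0.05, with a difference of -0.88 ± 0.35.

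Partners of the module were followed as a list of 58 genes, all measured, 8 of them under older symbols. Of 24 other membrane organizers 24 rose with HHT in heavy, with a median log2 difference of 1.89, and 11 rose in input. They included Lingo1 (2.02 ± 0.21), Bai2, an adhesion G protein-coupled receptor (1.53 ± 0.18), and Adam11 (1.48 ± 0.17). Of 18 secreted or lipid-anchored organizers 16 rose in heavy, with a median of 1.36, among them the netrin-G protein Ntng1 (adjusted p = 1.57e-05), and 10 rose in input. Of 16 cytoplasmic partners 4 rose and 3 fell in heavy, with a median of 0.10, and 1 rose in input. Over all genes 27.1% rose and 24.7% fell in heavy, and 12.2% rose in input. The heavy counts of the cytoplasmic partners were close to these shares. Gphn, the scaffold of inhibitory synapses, to which Nlgn2 binds, fell by 0.87 ± 0.12 in heavy (adjusted p = 4.24e-05) and rose by 0.86 ± 0.13 in medium. The adaptor Apba2 rose by 0.89 ± 0.13 in heavy and 0.54 ± 0.13 in input.

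Over all genes the response differed with the presence of a predicted hydrophobic segment. The 4702 genes with one had median log2 differences between HHT and vehicle of 0.39, 0.51 and 0.68 in input, medium and heavy, and the 8347 genes without had -0.06, -0.15 and -0.19. Member medians of 0.91, 1.42 and 1.81 were above those of the genes with a segment, a description without a test. Within the module the part of the segment was not tested. Lrfn1, Cntn1 and Cntn4, which had none, rose in all 3 kinds of library. Tissue was homogenised without detergent and spun at 2000 g and 10000 g before detergent was added, and the part of membrane-bound RNA in the results was not tested.

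Coding length was a further feature the members shared in part. Member coding sequences ran from 1164 to 8499 nt with a median of 2656, against 1422 over all genes. Across the 50 members the log2 heavy/input ratio under HHT had a Pearson r of 0.714 with log2 coding length and a Spearman rho of 0.634, and 0.585 and 0.53 without the 4 teneurins. Over the 13049 genes with a coding sequence the same values were 0.665 and 0.639, so the relation was close to that of genes in general. For the heavy difference between HHT and vehicle, r was 0.651 over members and 0.0366 over all genes, and in input 0.299 and 0.0277. In medium the order was reversed, at 0.339 over members and 0.445 over all genes. For the shift of medium/input r was 0.235 over members and 0.527 over all genes. For the shift of heavy/input it was 0.439 over members but 0.133 without teneurins. The genes share the same libraries and are not independent replicates.

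**Figure D4:**
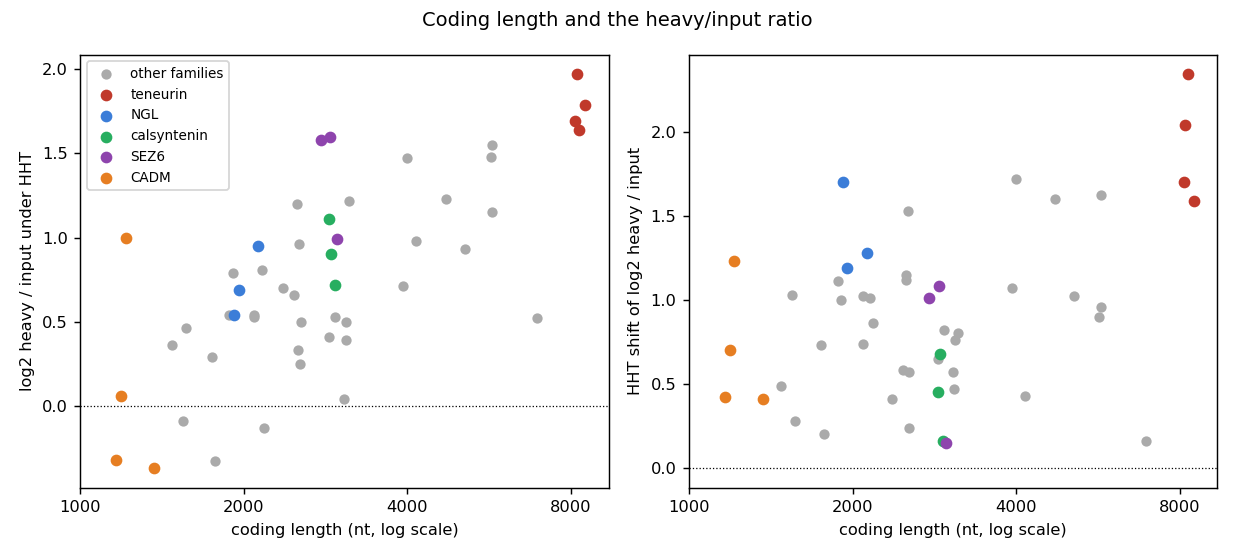
Log2 heavy/input ratio under HHT (left) and its shift between HHT and vehicle (right) against coding length in nucleotides (log x axis), 1 point per member, with 5 families in colour. Teneurins sit at the far right with ratios of 1.64 to 1.97, and the 3 SEZ6 genes have shifts of 0.15 to 1.08.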

How the data were processed

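RNA from 18 libraries was measured, and genes were followed by symbol. Per the submitters' processing notes, the tools were RSEM 1.2.11, Bowtie2 2.1.0, DESeq2 1.16.1 and Trimmomatic 0.32 on mm10, roles not stated. The deposited expected counts (0 of 251514 values whole within 1e-06) were rounded and fitted in edgeR 4.0.16 (R 4.3.3, TMM) as 12 group means, leaving 6 residual degrees of freedom (prior 7.36). Its low-count filter kept all 13973 genes. Vehicle groups of 1 library were assumed to vary like HHT groups. Tests are 2-sided with Benjamini-Hochberg adjustment over all genes per comparison, checked on simulated counts. The other table was deposited under the name TPM, but 10 of its 18 columns have sums too large for TPM, so the authors' values are treated as a score and named rescaled TPM. Each library was made from 200 ng RNA, so values are shares, not amounts. The authors' name for the deposited values includes the term 2batchN, which they do not explain. Which libraries shared a batch, whether values were adjusted for it and how genes were selected could not be established. Whether HHT replicates 1 and 2 were separate batches was not tested. In the main fit, p-values rest on the spread between the pooled HHT samples alone. Fractions of the same lysate enter that fit as if independent.

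Members and lists were chosen with earlier results of these data known. Every member may be named. Library values are given for the family member with the smallest adjusted p in heavy, for members called against the majority and for the largest changes. Partners are named by smallest adjusted p, up to 4 per comparison. By the labels' protocols, fractions with the same number within a genotype and treatment share a lysate, so they are paired. Their deviations correlated with r of 0.0142 to 0.349. Alternatives were DESeq2 1.42.0, limma 3.58.1 on log2(rescaled TPM + 1), total counts, RLE factors, leaving out the filter or each HHT lysate, fewer libraries and a block for lysate or replicate. Coding sequences are from GENCODE M21 on GRCm38, the assembly of mm10.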

Additional observations from a re-analysis of the deposited data

How the results depend on the processing

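Of 248 called member values, none changed sign under any alternative tried, and leaving the filter out changed no count. For HHT against vehicle the 50 calls in heavy ran from 48 to 50. The 31 in input became 13 with limma, 0 in KO slices alone, 14 in WT slices alone, 49 and 20 with replicate 1 or 2 alone, and 18 to 38 without each HHT lysate. The 48 in medium became 29 in KO slices alone. For heavy/input in vehicle, 7 became 20 with total counts, where the median of all genes went from -0.02 to -0.41, 18 with the lysate block, and 8 to 11 without each HHT lysate. For heavy/medium in vehicle, 10 became 18 with total counts, where calls over all genes went from 7541 to 8329, and 28 with the block. For medium/input in vehicle, 4 became 2 with limma and 11 with the block. Under HHT, medium/input went from 11 to 25 with the block and to 3 to 15 without each lysate, and heavy/medium from 18 to 28 and to 9 to 22. For the shifts, medium/input went from 1 to 4 with DESeq2, 14 and 19 with replicate 1 or 2 alone, 12 with the block, and 0 to 8 without each lysate. Heavy/input went from 19 to 30 with limma, 29 and 38 with replicate 1 or 2 alone and 35 with the block, and heavy/medium from 12 to 21, 22 and 21 with replicate 1, replicate 2 and the block. The causes were not tested. No label links equal replicate numbers in WT and KO, although their deviations had r of 0.323, 0.165 and 0.00332 in input, medium and heavy and replicate 1 exceeded replicate 2 in input in both genotypes. With that number as a block, KO against WT called 6 members in medium (1 higher, 5 lower), among them Cadm2. In heavy it called 2 members, Cadm2 and Ncam2, both higher, and in input 0. Over all genes the same fit called 306 in medium (103 higher, 203 lower), 62 in heavy (41 higher, 21 lower) and 6 in input. No paired analysis was possible for HHT against vehicle or the genotype difference of the response because vehicle libraries carry no replicate number. With 1 vehicle library per genotype and fraction, no spread within vehicle was measured.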
